A study of Mus musculus with 24 samples.

Results

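Marco, Cd5l, Vcam1, Spic, Vsig4, Cd163, Clec4f, Timd4, Mrc1 and Siglec1 are genes by which macrophages settled in tissues are commonly recognised, and here their RNA was followed in whole blood. They were found by their gene names on the array, which gave 10 genes with 12 probes among the 29742 genes represented. The 10 genes and the reference gene Alb were chosen by their log2 signals in these same 24 arrays, so every level and difference of theirs given here is a description and carries no p-value.

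The blood came from 24 male C57BL/6J mice, each hybridised to its own array, in 4 groups of 6. Unirradiated young mice (2 months) and unirradiated old mice (21 months) were compared with mice of the same ages given 4 Gy of x-rays to the whole body. Blood was drawn by puncture of the heart 24 h after exposure, at the time the mice were killed, and RNA was purified from all cells together. The study asked how age alters the blood response to radiation, and phagocytosis, the uptake of dying cells, was among the functions it examined.

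Tissue-resident macrophages live for long periods in organs such as liver, spleen, lung and the body cavities, where they take up dying cells, aged red cells, lipoproteins and microbes. They are told from circulating monocytes by receptors of this kind of uptake and by factors that fix their identity in each organ. Kupffer cells of the liver carry Clec4f, Vsig4, Timd4, Marco and Cd5l, and red pulp macrophages of the spleen depend on the transcription factor Spic and carry Vcam1. Marco, Timd4 and Cd5l are also made by macrophages of other sites, the peritoneal cavity among them. Albumin, the product of Alb, is the main protein of plasma and is made by hepatocytes, so that its RNA in blood serves as a sign of liver RNA.

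What each level rests on is a 60-base probe. The opening 30 bases are shown, in lower case and 5′ to 3′, for the probes on which the text below turns, namely the probe used for Marco and for Cd5l, both probes of Siglec1 and both of Vcam1, which disagree, and the probe of Alb.
Marco: gagcccgagaggtcatcagtgtgtccccag
Cd5l: atggtagagacttgaggagttgggacctcg
Siglec1, used: ttttctccattccccaagtgttgcctttga
Siglec1, not used: aggaacatccttcccggggatccagtcaca
Vcam1, used: tatatttttataggcaaatggtaaagaggt
Vcam1, not used: aaccaagagtttggaagtaacctttactcc
Alb: gctctgacagttgatgaaacatatgtcccc
In mm9, the build of the array design, the Cd5l probe lies on the plus strand at chr3:87174823-87174882 and the Alb probe on the plus strand at chr5:90901598-90901657. The probe used for Siglec1 lies on the minus strand at chr2:130895093-130895152, and the other Siglec1 probe at chr2:130909693-130909752. The Vcam1 probe used lies on the minus strand at chr3:115813216-115813275, and the other at chr3:115828953-115829012. For the Marco probe the design gives a span of only 20 bases on the minus strand, chr1:122371115-122371134. The design does not say whether a probe lies in coding or untranslated sequence. The members are spread over 7 chromosomes, so they are not neighbours of a single locus.

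A level is the log2 of the background-subtracted signal minus the median of its array, so that 0 is the median spot and a step of 1 is a factor of 2. Between 43.9% and 64.4% of spots were well above background on an array. Markers of blood cells were well above background on every array (8 of 8 listed genes). Old irradiated replicates 4 and 6 stood apart, with the lowest median signals (8.66 and 8.84) and correlations of 0.776 to 0.85 with the other old irradiated arrays, which correlated at 0.924 or more among themselves. Their summed erythroblast markers were 51839 and 57769 in units of the array median, against 9262 to 18603 on the other 4, and their pan-macrophage markers 432 and 442 against 2109 to 4961. No arrays were identical. The arrays of young mice shared 1 scan day and those of old mice another, so scan day and age cannot be told apart, and in each age only 1 of the slides of 4 arrays held both irradiated and unirradiated mice.

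Marco, a scavenger receptor that binds bacteria and modified lipoproteins, was well above background in all 24 mice. Its lowest, median and highest levels were 0.41, 2.04 and 5.38 in unirradiated young mice and 7.11, 7.94 and 9.24 in irradiated young mice. In old mice the same values were -0.51, 1.09 and 5.53 without irradiation and -0.024, 4.74 and 7.97 with it. Every irradiated young mouse was therefore above every unirradiated young mouse, whereas the old groups overlapped over most of their range. The mean log2 difference between irradiated and unirradiated mice was 5.65 ± 0.94 (SE, 6 against 6) in young mice, a 50.3-fold higher signal, and 2.71 ± 1.60 in old mice. The groups ranked, by mean ± SD (n = 6), irradiated young (8.09 ± 1.04), irradiated old (4.62 ± 3.11), unirradiated young (2.44 ± 2.05) and unirradiated old (1.91 ± 2.40), and all neighbours in this order overlapped.

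Cd163, the scavenger receptor for haemoglobin bound to haptoglobin, was not well above background on any of the 24 arrays. Its group means lay between -3.07 and -2.68, and it failed the filter on dim probes, so no level or difference can be read for it.

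Cd5l is a secreted protein of macrophages that circulates with IgM and was well above background in all 24 mice. In unirradiated young mice it had a lowest level of 1.03, a median of 2.91 and a highest of 7.05, against 7.81, 9.52 and 9.97 after irradiation. Again no young mouse overlapped between the groups, with a log2 difference of 5.43 ± 1.12 (SE), or 43.1-fold. Old mice had 0.80, 3.61 and 6.08 without irradiation, and 0.041, 5.92 and 9.58 with it, a difference of 2.31 ± 1.74. Of the irradiated old mice, 3 were above all unirradiated old mice and 1 was below all of them.

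**Figure D1:**
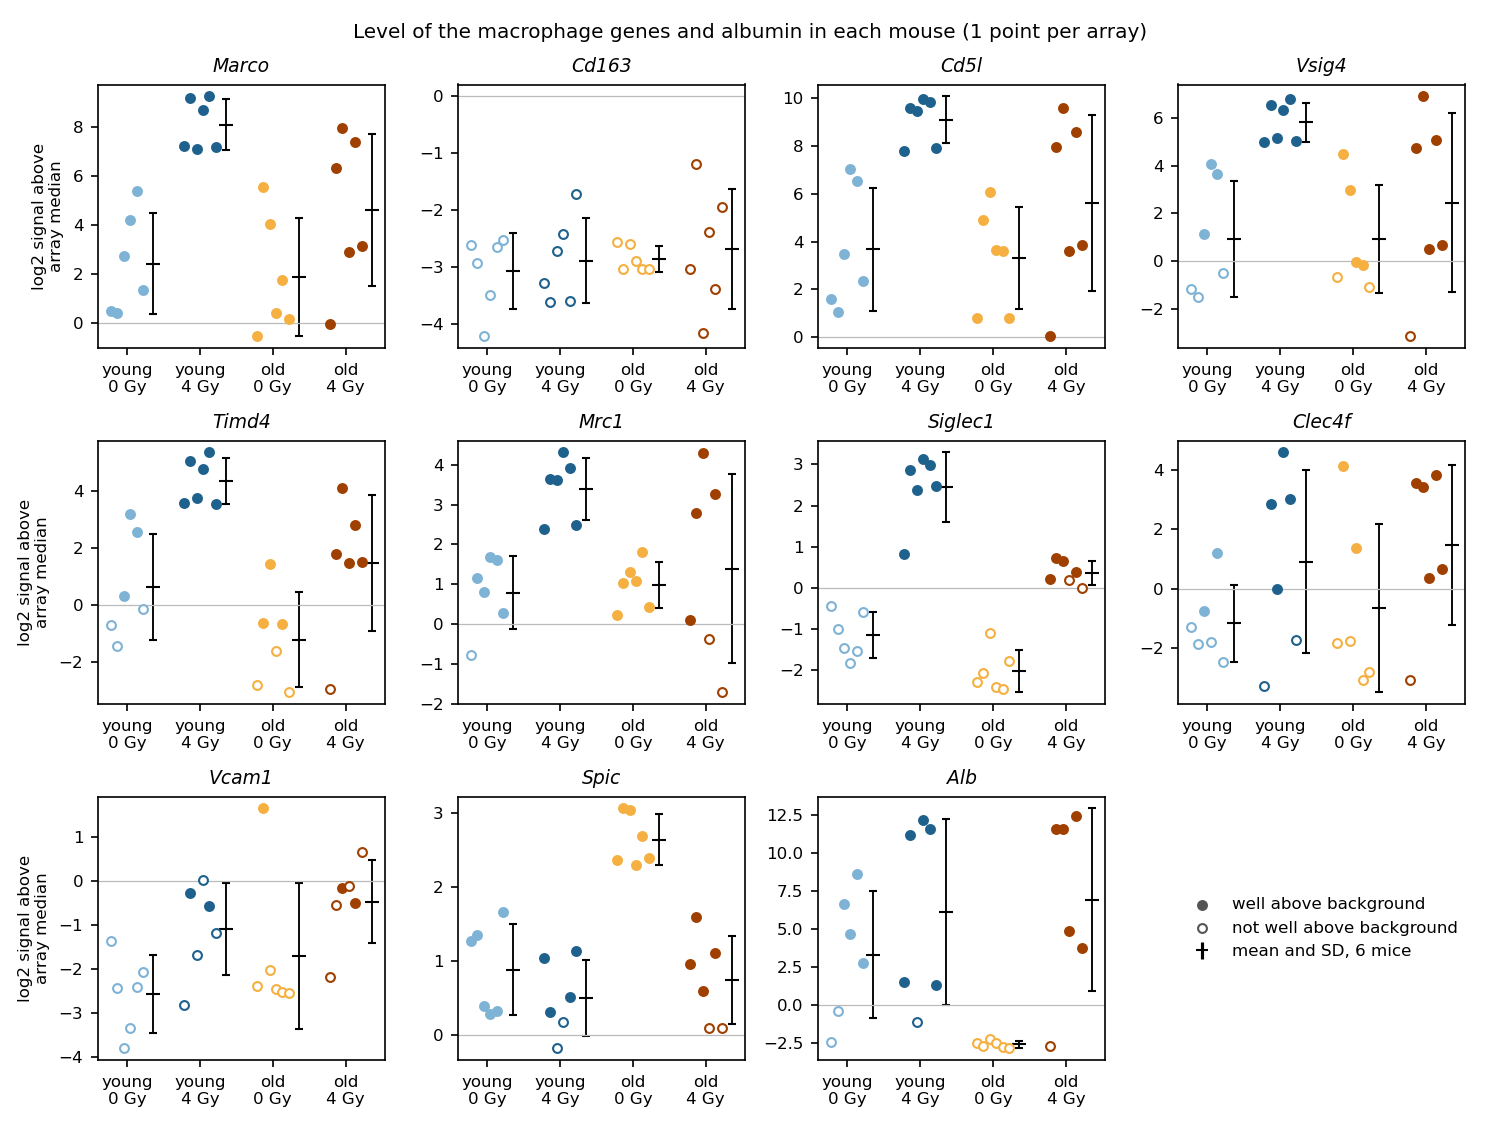
Each panel plots the log2 signal above the array median of 1 gene, with 1 point per mouse (6 per group), filled where the spot was well above background, and the mean with its SD in black. Marco, Cd5l, Vsig4, Timd4, Mrc1 and Siglec1 of the irradiated young mice sit above every unirradiated young mouse, the irradiated old mice spread over the whole range in most panels, and Spic is highest in the unirradiated old mice.

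The uptake receptors Vsig4 and Timd4 followed the same order. Vsig4 is a complement receptor of the immunoglobulin family through which Kupffer cells clear microbes from the circulation, and Timd4 binds phosphatidylserine exposed on dying cells. Vsig4 ran from -1.53 through a median of 0.31 to 4.05 in unirradiated young mice and from 5.0 through 5.75 to 6.80 in irradiated young mice. The difference was 4.89 ± 1.05 (SE), or 29.5-fold, and the groups did not overlap. In old mice, Vsig4 ran from -1.08 through -0.092 to 4.48 without irradiation and from -3.15 through 2.70 to 6.91 with it, which gave 1.54 ± 1.79. The irradiated old mice thus held both the lowest and the highest Vsig4 level of all 24 mice. Timd4 ran from -1.42 through 0.094 to 3.22 in unirradiated and from 3.57 through 4.28 to 5.36 in irradiated young mice, a difference of 3.71 ± 0.82. In old mice it ran from -3.05 through -1.12 to 1.45 and from -2.94 through 1.67 to 4.10, a difference of 2.68 ± 1.19. Irradiated old mice had Timd4 above all unirradiated old mice in 5 of 6 cases, the exception being replicate 1.

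Among the lectin receptors, Mrc1, the mannose receptor, was well above background in 21 of 24 mice. In young mice its lowest, median and highest levels were -0.77, 0.99 and 1.67 without and 2.39, 3.63 and 4.31 with irradiation, so the groups were separate, by 2.60 ± 0.49 (SE). Unirradiated old mice had 0.23, 1.06 and 1.81, a narrower range than the irradiated old mice at -1.70, 1.45 and 4.29. Of those irradiated old mice, 3 were above and 3 were below all unirradiated old mice, so that the mean difference of 0.41 ± 1.0 stands for no mouse.

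Siglec1, a sialic acid-binding receptor that is made under interferon and is found on macrophages of marrow, spleen and lymph node, behaved differently in old mice. Its signal exceeded background clearly in 6 of 6 irradiated young and 4 of 6 irradiated old mice, and in 0 of 6 of each unirradiated group. Levels in irradiated young mice were 0.82 at the lowest, 2.67 at the median and 3.13 at the highest, and in irradiated old mice -0.0034, 0.31 and 0.72. The unirradiated groups lay at -1.83, -1.23 and -0.45 (young) and at -2.46, -2.19 and -1.10 (old), so irradiated mice were above all unirradiated mice in both ages. Because the unirradiated spots were not well above background, the folds were taken against a floor. They were 9.74-fold higher in irradiated young mice and 2.18-fold higher in irradiated old mice. The floor sets each unirradiated spot to the lowest signal well above background on its array, where that is higher than the spot itself. Irradiated spots were kept as measured, also in old replicates 4 and 6, which were not well above background. These folds hold for this probe and background correction only and are no lower limits, as the values below show. The SD of Siglec1 in irradiated old mice was 0.28, against 3.11 for Marco in the same 6 mice. The other Siglec1 probe was well above background on 3 arrays in all, with group means from -2.96 to -1.78, and gave no such difference. With the mean of both probes, the differences were 1.84 in young and 0.68 in old mice, and with normexp background correction 1.18 and 0.27.

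Clec4f, a lectin receptor that in the mouse is restricted to Kupffer cells, was well above background in 13 of 24 mice. Its levels were -2.48, -1.54 and 1.20 (lowest, median, highest) in unirradiated young mice and -3.28, 1.44 and 4.59 in irradiated young mice. In old mice they were -3.07, -1.79 and 4.15 without and -3.07, 2.05 and 3.82 with irradiation. All 4 groups overlapped, and the differences of 2.08 ± 1.36 in young and 2.11 ± 1.60 in old mice were within their spread.

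Vcam1, which anchors leukocytes to endothelium and marks splenic and marrow macrophages, was well above background on 5 arrays with 1 probe and on none with the other. It failed the filter on dim probes. The highest level was that of old unirradiated replicate 2 (1.64), while the other unirradiated old mice lay at or below -2.03. The group means of the brighter probe lay between -2.57 and -0.47, and its differences were 1.48 ± 0.56 in young and 1.25 ± 0.78 in old mice. With normexp background correction they were 0.15 and -0.030. The other probe had means of -2.81 without and -2.59 with irradiation in young mice, and -2.51 and -2.25 in old mice. As for Cd163, no response can be read from spots this dim.

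Spic, the factor that red pulp macrophages need, ran against the receptors. Unirradiated old mice had levels of 2.29, 2.53 and 3.06 (lowest, median, highest), above all mice of the other groups. Unirradiated young mice had 0.29, 0.83 and 1.67, irradiated young mice -0.18, 0.41 and 1.13, and irradiated old mice 0.095, 0.78 and 1.59. Spic was thus 3.37-fold higher in old than in young mice under basal conditions (log2 difference 1.75 ± 0.29, SE) and 3.72-fold lower in irradiated than in unirradiated old mice (log2 difference -1.89 ± 0.28). The size of the first difference depended on the processing, and the median over all genes tested was itself 0.63. It was 1.09 to 1.43 with other scalings, 1.23 with the authors' deposited values and 0.54 with normexp background correction. The second was -0.63 with normexp. In young mice the difference with irradiation was -0.38 ± 0.33, and the ranges overlapped.

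Of the 10 members, 8 passed the filters on low and unvarying signals and entered the fit of all 17472 genes with limma's moderated test, where a gene was called at p under 0.005 and a Benjamini-Hochberg adjusted p under 0.05. In young mice, 6 of the 8 were called, all higher after irradiation (Marco, Cd5l, Vsig4, Timd4, Mrc1 and Siglec1). Of all genes tested, 35.8% were called in either direction, 14.4% higher and 21.4% lower. In old mice 2 were called, Siglec1 higher and Spic lower, against 25.0% of all genes in either direction, 7.60% higher and 17.4% lower. Between unirradiated old and young mice only Spic was called, higher in old mice, against 63.8% of all genes in either direction, 48.2% higher and 15.5% lower. Between irradiated old and irradiated young mice only Siglec1 was called, lower in old mice, against 2.00% of all genes in either direction, 1.40% higher and 0.601% lower. That share was unstable, since the 350 genes behind it became 33 without irradiated young replicate 3 and between 33 and 504 over all mice left out in turn, 9 of 12 of which moved it by over 1.5 times. Groups did not overlap for 6 members in young mice, all higher (9.58% of all genes), and for Siglec1 (higher, 5.92%) and Spic (lower, 16.8%) in old mice. Between unirradiated groups Spic did not overlap (higher in old mice, 37.3% of all genes), and between irradiated groups Siglec1 did not (lower in old mice, 0.612%). With normexp background correction the 6 calls in young mice stood in number, but none of the calls of the other comparisons was made. Calls over all genes fell as well, from 6252 to 835 in young mice and from 4367 to 8 in old mice. Between unirradiated groups they fell from 11140 to 0. These counts were fixed by the choice of the members and nothing is read from them. The median log2 difference over all 10 members was 3.10 in young mice, where the median over all genes tested was -0.20, and 1.82 in old mice, where it was -0.25. Between unirradiated mice of the ages it was 0.088 (all genes 0.63), and between irradiated mice -2.04 (all genes 0.20). The 10 include Cd163 and Vcam1, which failed the filter that all genes tested had passed. Over the 8 members tested the median was 3.65 in young and 2.21 in old mice, -0.19 between unirradiated and -2.49 between irradiated mice.

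The 4 comparisons share groups, so the old and young responses are set side by side and were also put into 1 interaction fit. The response of old mice was lower than that of young mice by 2.94 on the log2 scale for Marco, by 3.12 for Cd5l, by 3.35 for Vsig4, by 2.19 for Mrc1 and by 1.03 for Timd4. No member was called for the interaction. No gene was called in limma's interaction fit, in which 4116 of all genes and 3 of 8 members had an unadjusted p under 0.05 and the lowest adjusted p was 0.060. The count of all genes rested on 1 mouse, being 1043 without irradiated old replicate 3 and 0 to 7 without any other mouse. With Alb as a covariate 4 members were called for the interaction. In old mice Alb was well above background in 5 of 6 irradiated and 0 of 6 unirradiated mice. The fit separates Alb from irradiation poorly there, and nothing is read from this count. Over the alternatives the count of all genes called ran from 0 to 5967, the highest without irradiated old replicates 2, 3 and 5. Scaling to the 75th percentile or quantile normalization gave 8 or 7 genes called for the interaction, none of them a member.

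Only 1 slide per age allowed irradiated and unirradiated mice to be compared on the same glass, with 2 mice against 2. On it the log2 difference in young mice was 4.82 for Marco, 4.27 for Cd5l, 4.22 for Vsig4, 3.10 for Timd4, 2.91 for Siglec1 and 2.07 for Mrc1. In old mice it was 2.18 for Marco, 1.81 for Cd5l and 2.59 for Siglec1, and -1.26 for Spic. The directions were those over all mice, but with the slide as a fixed block only 1 member was called in each age. Over the alternatives the count of all genes called ran from 835 to 8789 in young and from 8 to 7071 in old mice. Nothing is therefore read from this count of members.

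**Figure D2:**
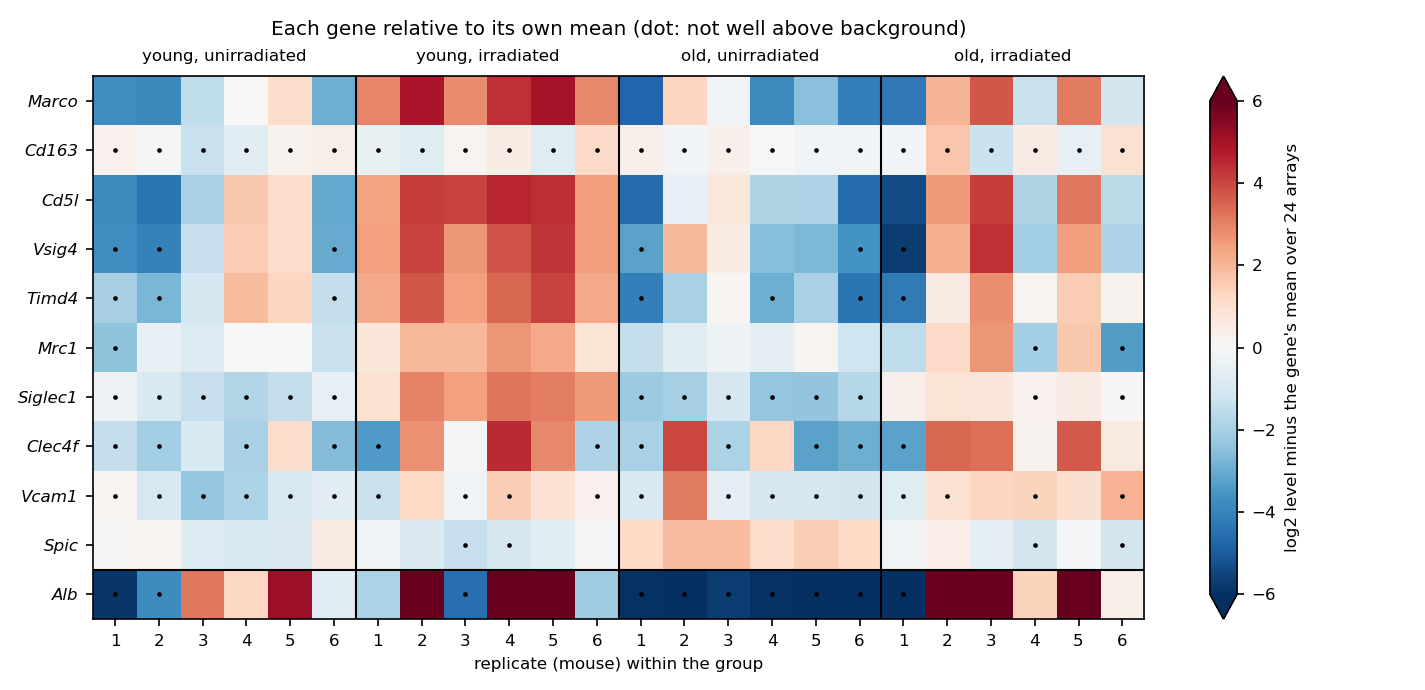
Rows are the 10 genes and Alb, columns the 24 mice by group and replicate, and the colour is the log2 level minus the gene's mean over 24 arrays, limited at 6 on either side, with a dot where the spot was not well above background. Marco, Cd5l, Vsig4, Timd4 and Mrc1 are above their means in all 6 irradiated young mice and in replicates 2, 3 and 5 of the irradiated old mice, and lower in replicates 1, 4 and 6 of the latter.

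Marco, Cd5l and Vsig4 split the mice of a group in the same way. In irradiated old mice, replicates 2, 3 and 5 had Marco at 6.31, 7.97 and 7.37, while replicates 1, 4 and 6 had -0.024, 2.93 and 3.16. The same replicates were high for Cd5l at 7.97, 9.58 and 8.59, against 0.041, 3.61 and 3.87. Siglec1 was also higher in replicates 2, 3 and 5 (0.72, 0.65 and 0.40) than in replicates 1, 4 and 6 (0.22, 0.18 and -0.0034). The gap was far smaller, the order within each set differed from that of Marco, and replicates 4 and 6 were not well above background. Among unirradiated old mice, replicates 2 and 3 stood highest, with Marco at 5.53 and 4.06 and Vsig4 at 4.48 and 2.98. Unirradiated young replicates 4 and 5 stood highest in their group, with Cd5l at 7.05 and 6.53. Across the 24 arrays the correlation of a member with the mean of the other members was 0.977 for Marco, 0.970 for Cd5l, 0.964 for Vsig4, 0.890 for Timd4, 0.832 for Mrc1, 0.680 for Siglec1, 0.621 for Clec4f and -0.466 for Spic. These values describe 24 arrays that share groups, slides and scan days.

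Albumin RNA was set beside the members in each array, since liver holds both hepatocytes and Kupffer cells. Alb was not well above background in any unirradiated old mouse (-2.81 to -2.25). In irradiated old mice it was 11.54, 11.58 and 12.44 in replicates 2, 3 and 5, 4.85 and 3.76 in replicates 4 and 6, and -2.65 in replicate 1, where it was not well above background. Against a floor set as for Siglec1, Alb was 206-fold higher in irradiated than in unirradiated old mice, with 5 of 6 irradiated mice well above background. The log2 difference was 9.49 as measured and 5.57 with normexp background correction. In irradiated young mice, Alb was 11.20, 12.17 and 11.55 in replicates 2, 4 and 5 and 1.55, -1.07 and 1.33 in replicates 1, 3 and 6. Unirradiated young mice ranged from -2.38 to 8.59.

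High Alb and high receptor RNA fell in the same mice in 3 of the 4 groups. Irradiated old replicates 2, 3 and 5 were highest for both, and irradiated young replicates 2, 4 and 5, which had the highest Alb, had the 3 highest levels of Marco (9.16, 8.67 and 9.24), Cd5l, Vsig4, Timd4, Mrc1 and Siglec1. Unirradiated young replicates 3, 4 and 5, again highest for Alb, had the 3 highest levels of Marco (2.73, 4.23 and 5.38), Cd5l, Vsig4 and Timd4. With the group means removed, the correlation with Alb over the 24 arrays, which share slides and scan days, was 0.740 for Marco, 0.713 for Cd5l, 0.724 for Vsig4, 0.733 for Clec4f, 0.687 for Timd4, 0.665 for Mrc1, 0.263 for Siglec1 and -0.132 for Spic. Receptor RNA was also present where Alb was low. The 3 irradiated young mice with low Alb had Marco at 7.21, 7.11 and 7.17, all above the highest unirradiated young mouse, and Cd5l at 7.81, 9.45 and 7.91. Across the 6 irradiated young mice Alb spanned 13.24 on the log2 scale and Marco 2.12. In unirradiated old mice, where Alb was not well above background, replicate 2 had Marco at 5.53, Vsig4 at 4.48 and Clec4f at 4.15 with Alb at -2.64, and old irradiated replicate 4 had Alb at 4.85 with Marco at only 2.93. Siglec1 in irradiated old mice stayed between -0.0034 and 0.72 over the whole range of Alb.

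**Figure D3:**
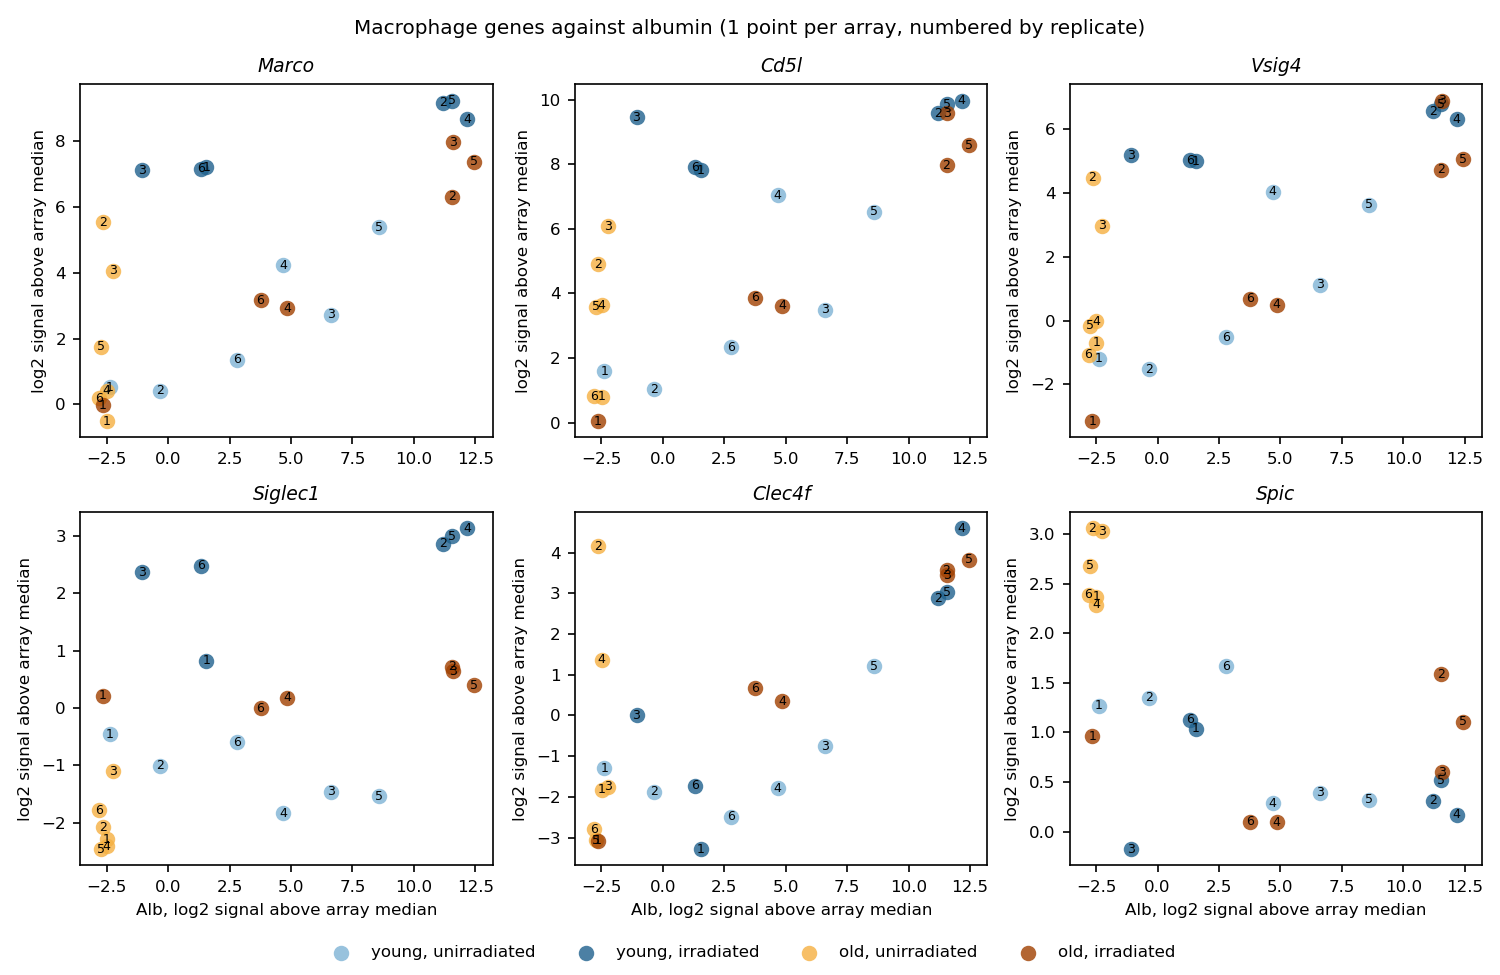
Each panel plots 1 gene (vertical) against Alb (horizontal), both as log2 signal above the array median, with 1 numbered point per mouse coloured by group. Irradiated young replicates 1, 3 and 6 sit at high Marco, Cd5l and Vsig4 with low Alb, unirradiated old replicates 2 and 3 do so at lower levels, and irradiated old replicates 2, 3 and 5 are high on both axes.

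The comparisons were repeated without arrays that hold much Alb. Apart from old irradiated replicate 4, these arrays also held the highest Marco, Cd5l, Vsig4 and Timd4 of their groups. Old irradiated replicate 4 was among the 3 highest of its group for 0 of the 8 tested members. Leaving the arrays out therefore lowers the means of these 4 genes, and the values are descriptions of the mice that remain. In young mice, leaving out irradiated replicates 2, 4 and 5 left log2 differences of 4.72 for Marco, 4.72 for Cd5l, 4.14 for Vsig4, 3.0 for Timd4, 3.04 for Siglec1 and 2.04 for Mrc1. Leaving out every array with Alb more than 4 above the median, which leaves 3 young mice against 3, gave 6.40 for Marco, 6.74 for Cd5l, 6.15 for Vsig4, 4.39 for Timd4, 2.60 for Mrc1 and 2.57 for Siglec1. This also removes the 3 unirradiated young mice with the highest Marco, Cd5l, Vsig4 and Timd4, which lowers the baseline of these genes. The same 3 mice had the lowest Siglec1 of their group (-1.46, -1.83 and -1.53, none well above background), so the Siglec1 baseline rises. Clec4f had no such difference, with 2.08 over all young mice, -0.50 without the 3 irradiated arrays and 0.22 without any of the high-Alb arrays.

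In old mice, without irradiated replicates 2, 3 and 5, the log2 difference was 0.12 for Marco, -0.79 for Cd5l, -1.58 for Vsig4, -1.64 for Mrc1 and 1.24 for Timd4, so Cd5l, Vsig4 and Mrc1 changed sign. Siglec1 (2.15) and Spic (-2.25) were little altered. The irradiated old mice that remained were replicate 1 and the pair that stood apart, replicates 4 and 6, in which Mrc1 was not well above background. With Alb as a covariate the median over members in old mice was -2.13 instead of 1.82. Alb was well above background in 5 of 6 irradiated and 0 of 6 unirradiated old mice. That fit can therefore hardly separate Alb from irradiation, and no reversal is read from it. Without replicates 4 and 6 the differences were 3.50 for Marco, 3.24 for Cd5l and 2.47 for Vsig4, and the calls were again Siglec1 and Spic.

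**Figure D4:**
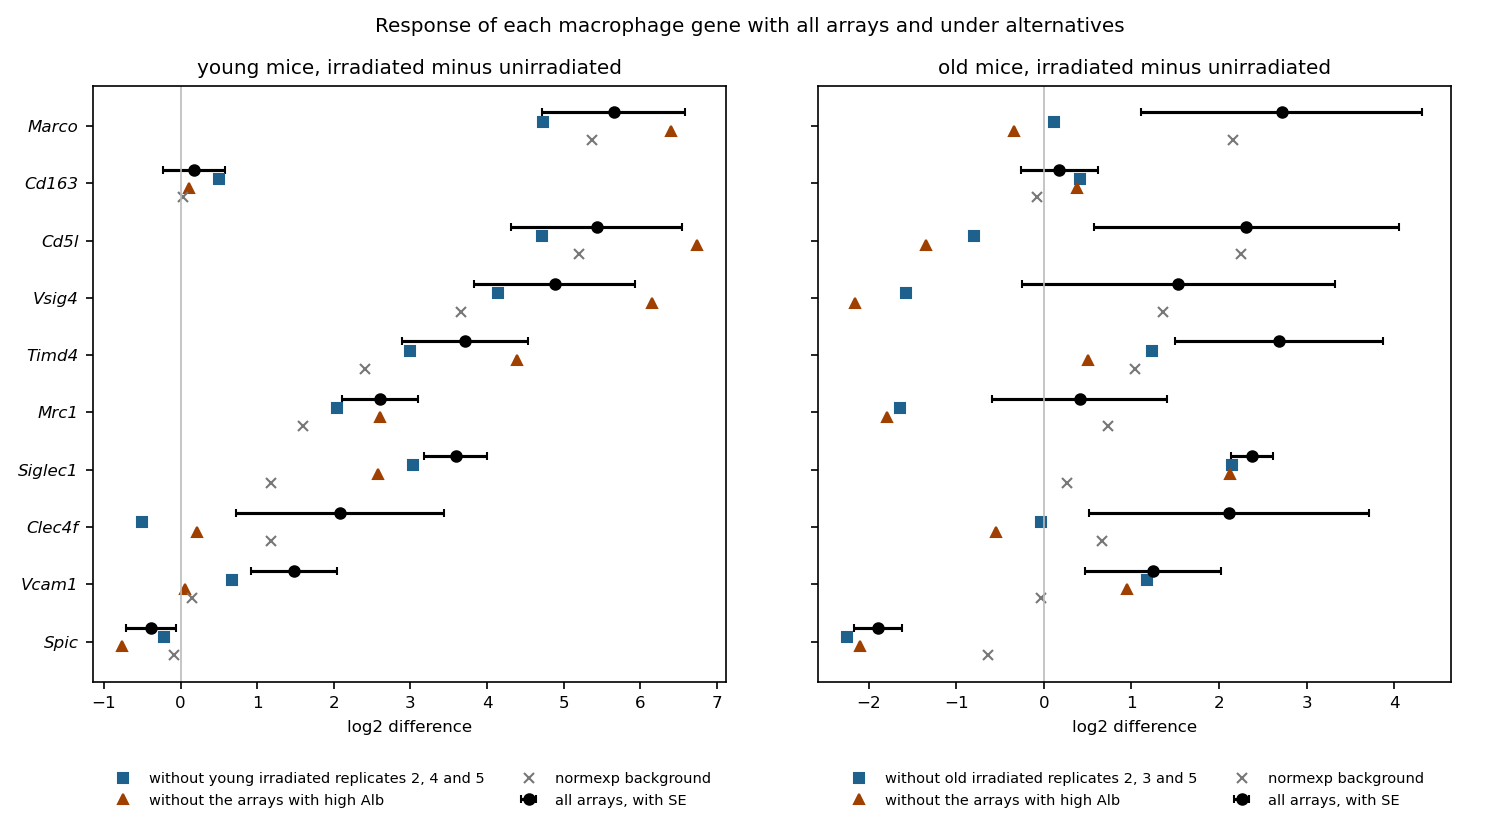
Log2 differences of irradiated minus unirradiated mice (horizontal) for the 10 genes in young and old mice, with all arrays (black, with SE), without the 3 irradiated arrays of that age with the highest Alb, without all arrays with Alb more than 4 above the median, and after normexp background correction. In young mice Marco stays between 4.72 and 6.40. In old mice it drops from 2.71 to 0.12 with 3 irradiated mice left. Without all arrays rich in Alb it is -0.34, with only 2 irradiated old mice left.

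Lists of markers of other cells were read from the same fit, without the 10 members. The lists were chosen with earlier results of these data known, so their counts and p-values are descriptions too. In blood RNA, more cells of a type and more RNA per cell cannot be told apart. In young mice, 10 of 14 pan-macrophage genes passed the test and all 10 rose, with a median difference of 1.54. It was 6 of 14 without irradiated replicates 2, 4 and 5. Of the most abundant, the growth factor receptor Csf1r (0.52 ± 0.16, SE, adjusted p = 0.019), the pore-forming protein Mpeg1 (0.16 ± 0.16, adjusted p = 0.44) and the lipid carrier Apoe (1.69 ± 0.66, adjusted p = 0.051) did not pass in limma's moderated test. The complement genes C1qa (4.69 ± 1.0, adjusted p = 0.0020), C1qb (2.25 ± 0.33, adjusted p = 0.00015) and C1qc (4.91 ± 1.0, adjusted p = 0.0015) rose, as did Adgre1, the F4/80 antigen (2.75 ± 0.39, adjusted p = 0.00013); C1qb and Adgre1 were chosen for mention after their values were seen. In old mice 1 of 14 rose, C1qb (2.64 ± 0.65, adjusted p = 0.0082), and the list median was -0.24.

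Markers of peritoneal macrophages, a list also chosen with earlier results of these data known, moved with the receptors. All 6 tested genes rose in young mice, with a median log2 difference of 4.25. They included the lubricating glycoprotein Prg4 (4.83 ± 1.0, adjusted p = 0.0016 in limma), the lipoxygenase Alox15 (3.87 ± 0.70, adjusted p = 0.00067), the protease inhibitor Serpinb2 (3.73 ± 0.44, adjusted p = 3.9e-05) and Gata6, the factor that fixes the identity of peritoneal macrophages (4.19 ± 0.82, adjusted p = 0.0012, chosen for mention after its value was seen). In old mice only Serpinb2 rose (2.39 ± 0.36, adjusted p = 0.00067), while Prg4 (2.44 ± 1.64) and Gata6 (0.96 ± 1.16) did not pass. The summed linear level of the 7 genes on the array, in units of the array median, was 13.9 to 393 in unirradiated and 395 to 1446 in irradiated young mice. Irradiated young replicates 1, 3 and 6, whose summed hepatocyte markers were only 116, 76.5 and 93.9, had 395, 866 and 430. In irradiated old mice it was 360, 1106 and 534 in replicates 2, 3 and 5 and 38.5 to 48.2 in the others, and in unirradiated old mice 9.61 to 148. Without the arrays rich in Alb, all 6 genes were again called higher in young mice, where unirradiated replicates 4 and 5, the highest of their group for these genes (393 and 159), are among those left out, and without irradiated young replicates 2, 4 and 5 it was 2 of 6.

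Kupffer cell genes other than the members moved in both directions, with Id3 the only one called lower in either age. The median log2 difference of the list was 1.99 in young and 1.25 in old mice. In young mice 4 of 7 rose and 1 fell: properdin, Cfp, which stabilises complement convertases (3.12 ± 0.58, adjusted p = 0.00085), and the iron exporter Slc40a1 (1.99 ± 0.21, adjusted p = 1.8e-05) rose, and the transcriptional inhibitor Id3 fell by 1.24 on the log2 scale (adjusted p = 5.1e-05). In old mice 2 of 7 rose and 1 fell, Id3 (-1.98 ± 0.38, adjusted p = 0.0025). Of splenic macrophage genes, which include Slc40a1, 3 of 6 rose and 2 fell in young mice and 0 of 6 passed in old mice. There the metal transporter Slc11a1 rose (1.36 ± 0.21, adjusted p = 0.00022), and the haem genes Slc48a1 (-1.64 ± 0.28, adjusted p = 0.00044) and Blvrb (-0.89 ± 0.21, adjusted p = 0.0042) fell, all by limma's test. Of alveolar macrophage genes, 1 of 7 rose and 2 fell in young mice, among them Chil3 (-1.97 ± 0.26, adjusted p = 8.9e-05) and carbonic anhydrase Car4 (-0.88 ± 0.20, adjusted p = 0.0029), and 1 of 7 rose in old mice. Genes named for microglia rose in 2 of 4 cases in young and 1 of 4 in old mice, where the gene was P2ry12, which platelets also carry (2.33 ± 0.38 in young and 1.52 ± 0.32 in old mice, adjusted p = 0.00032 and 0.0037).

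The liver's other cells were read in the same way. Of hepatocyte genes, 0 of 8 passed in young mice, where the median difference was 2.91 and the mice were split as described for Alb, and 7 of 8 rose in old mice (median 6.26), and 6 of 8 without irradiated replicates 2, 3 and 5. Apolipoprotein Apoa2 (3.78 ± 0.90, adjusted p = 0.0068), fibrinogen Fgb (6.16 ± 1.36, adjusted p = 0.0047) and Cyp2e1 (5.29 ± 1.01, adjusted p = 0.0023) were the most abundant of them. The summed level of the 12 hepatocyte genes, without Alb, was 90.2 to 1354 in unirradiated and 76.5 to 21998 in irradiated young mice. It was 43.7 to 65.3 in unirradiated and 92.0 to 10594 in irradiated old mice, with 3 to 4 and 5 to 12 of the 12 genes well above background. Genes of liver sinusoidal endothelium rose in 5 of 6 cases in young and 4 of 6 in old mice, among them the lectin Clec4g (1.27 ± 0.17, adjusted p = 9.6e-05, and 2.51 ± 0.34, adjusted p = 0.00044). Genes of hepatic stellate cells and fibroblasts rose in 1 of 4 cases in young mice and 0 of 4 in old mice. The part of liver or other tissue RNA in the members' levels was not tested.

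The remaining lists covered cells of blood and of tissues near the puncture. Blood monocyte genes, with Ly6c1 read in place of the nearly identical Ly6c2, rose in 4 and fell in 1 of 10 cases in young mice, and rose in 1 and fell in 2 in old mice. Among them the transglutaminase F13a1 rose in both ages (1.64 ± 0.28, adjusted p = 0.00050, and 1.45 ± 0.31, adjusted p = 0.0043), and the integrin Itgam rose in young mice (1.18 ± 0.26, adjusted p = 0.0027). Neutrophil genes rose in 3 of 10 cases in young mice, with S100a8 at 1.67 ± 0.34 (adjusted p = 0.0014), and in 0 of 10 in old mice. The median log2 difference of that list was nonetheless similar, at 0.74 in young and 0.63 in old mice. Genes of conventional dendritic cells rose in 1 and fell in 2 of 4 cases in young mice, and fell in 1 of 4 in old mice. Vascular endothelial genes rose in 4 of 5 cases in both ages, with Egfl7 at 2.55 ± 0.48 (adjusted p = 0.00094) and 2.64 ± 0.58 (adjusted p = 0.0046). Cardiac muscle genes rose in 1 of 5 cases in young and 0 of 5 in old mice, and the 1 tested lung epithelial gene passed in neither. Erythroblast genes rose in 2 and fell in 2 of 7 cases in young mice, with Hemgn at -1.08 ± 0.19 (adjusted p = 0.00053), and rose in 1 of 7 in old mice. Of general blood cell genes, 3 of 8 rose and 3 fell in young mice and 2 rose and 1 fell in old mice, the platelet chemokine Pf4 rising in both (1.40 ± 0.23, adjusted p = 0.00035, and 1.32 ± 0.34, adjusted p = 0.0095).

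**Figure D5:**
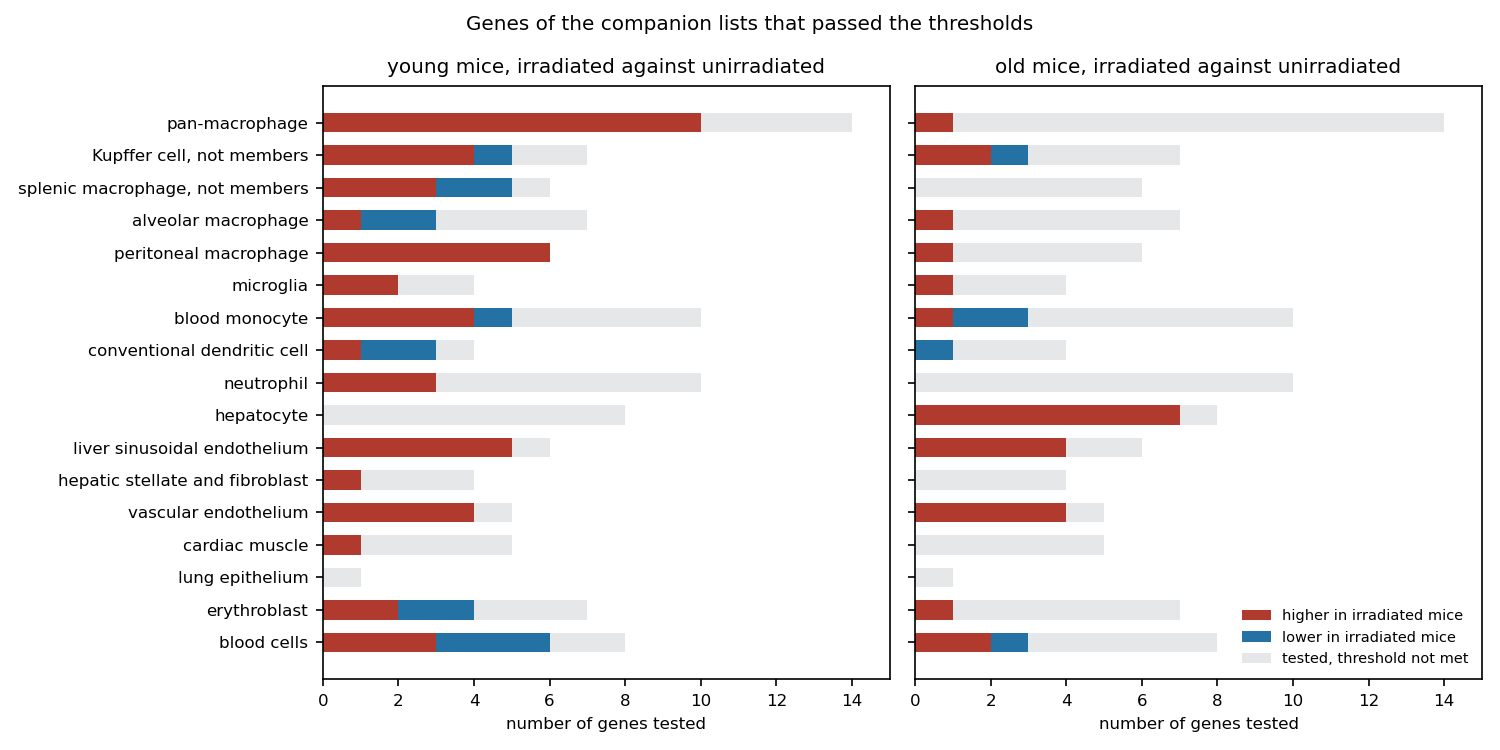
Bars count the tested genes of each of 17 marker lists (members excluded) that were called higher (red), called lower (blue) or did not meet the thresholds (grey), for young mice on the left and old mice on the right. In young mice the peritoneal macrophage list was called higher in 6 of 6 genes and the pan-macrophage list in 10 of 14, and in old mice the hepatocyte list was called higher in 7 of 8.

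Among 18555 other genes, the 10 whose levels over the 24 arrays were most like the mean of the members were Dab2, Folr2, Fcna, Mertk, Gfra2, C1qc, Itga9, C1qa, Evi5 and Ccl24, with Pearson correlations from 0.975 for Dab2 to 0.939 for Ccl24. Dab2 is an adaptor of receptor uptake, Folr2 a folate receptor, Fcna a ficolin of the lectin complement pathway and Mertk a receptor kinase for dying cells. Mean levels of Fcna were 1.45 in unirradiated and 6.14 in irradiated young mice, and 1.23 and 2.88 in old mice. Ccl24, an eosinophil chemokine, had -0.17 and 4.40 in young and 0.075 and 1.20 in old mice. The 10 genes were picked for this likeness, so the order of their group means follows from the choice.

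The 250 bases before the starts of the members in RefSeq (GRCm38.p6) were searched on both strands for motifs of factors active in macrophages. A promoter was found for 8 of the 10 members, those of Siglec1 and Vcam1 not being among them. These 8 include Spic, Clec4f and Cd163, which were not among the 6 members called higher in irradiated young mice. The PU.1 motif AGGAAGT occurred in 2 of the 8 (Mrc1 and Spic) and in 7.69% of all 32851 promoters. The nuclear receptor motif AGGTCA occurred in 2 (Timd4 and Clec4f) and in 14.0% of all. The interferon-stimulated response motif and the AP-1 motif TGANTCA occurred in 0 of the 8 (2.98% and 6.75% of all). The motifs AGGTCA and TGANTCA can overlap in their last letters. The windows of Mrc1 and Spic are shown because each holds a PU.1 motif, in capitals and on the opposite strand, beginning 211 and 48 bases before the start. That of Marco, the member most like the rest, is shown because it holds none of the 4 motifs.
Mrc1, chr2:14229164-14229413, plus strand: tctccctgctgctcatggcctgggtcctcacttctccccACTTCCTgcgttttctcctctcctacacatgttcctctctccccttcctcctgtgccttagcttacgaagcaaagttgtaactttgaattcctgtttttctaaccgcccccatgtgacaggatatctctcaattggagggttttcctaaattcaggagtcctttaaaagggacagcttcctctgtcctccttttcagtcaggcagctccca
Spic, chr10:88683024-88683273, minus strand: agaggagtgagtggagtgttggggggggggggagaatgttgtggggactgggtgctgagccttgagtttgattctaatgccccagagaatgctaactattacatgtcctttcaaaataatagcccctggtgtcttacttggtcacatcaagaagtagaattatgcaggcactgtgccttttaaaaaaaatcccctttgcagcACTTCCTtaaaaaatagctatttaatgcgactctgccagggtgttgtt
Marco, chr1:120505025-120505274, minus strand: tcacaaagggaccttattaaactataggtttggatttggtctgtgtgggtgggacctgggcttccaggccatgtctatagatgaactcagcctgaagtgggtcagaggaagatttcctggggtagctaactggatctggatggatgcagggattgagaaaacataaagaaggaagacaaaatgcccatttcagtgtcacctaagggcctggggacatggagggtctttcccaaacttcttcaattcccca
A match describes these letters only and says nothing of binding.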

How the data were processed

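RNA of PAXgene blood from 24 mice was globin-reduced and hybridised to 1-colour Agilent mouse arrays by the authors, who extracted the signals with Agilent Feature Extraction 12.0.2, per the labels. The deposited scanner files hold the background-subtracted signal intensity of each spot. A second deposited table holds the authors' normalized log2 values for 17166 genes (8 members) and served as an alternative. From the intensity of 43020 non-control spots, log2 values were taken with non-uniform spots missing, and the array median was subtracted. Probes significant over background on too few arrays were dropped (24130 probes of 18737 genes left), the brightest probe was kept for each gene, and genes departing 1.5-fold from their median on at least 5 arrays were tested (17472). limma 3.58.1 in R 4.3.3 compared 6 mice with 6 in 4 comparisons and an interaction, calling genes at p below 0.005 and adjusted p below 0.05. Every value rests on 1 array per mouse, and the number of arrays limits the precision. The test was run on simulated data with changes added, of which it recovered between 57.0% and 94.5% by comparison. The members and the marker lists were chosen with earlier results of these data known. The text names, of each list, up to 3 genes of highest mean signal, besides all members, Alb and the 10 genes most like the members; others are marked as chosen after their values were seen. Alternatives covered scaling, background correction, filters, slide, replicate number, Alb and left-out arrays.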

Additional observations from a re-analysis of the deposited data

Results flagged for a closer look

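Of 44 groups of 6 mice examined (11 genes in 4 groups), 3 had a mouse whose gap to its nearest neighbour exceeded Dixon's critical share of the whole range of the group. Chance flags about 1 in 20 groups. Vcam1 of unirradiated old replicate 2 was 1.64, against a nearest value of -2.03 (ratio 0.875), in the mouse that also had the highest Clec4f level of its group (4.15). Timd4 of irradiated old replicate 1 was -2.94, against 1.5 (ratio 0.630), and the same mouse had the lowest Marco, Cd5l and Vsig4 of its group. Siglec1 of irradiated young replicate 1 was 0.82, against 2.37 (ratio 0.669).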

How the results depend on the processing

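No called value changed sign. Marco, Cd5l, Vsig4, Timd4, Mrc1 and Siglec1 stayed higher in irradiated young mice under every alternative run, whereas uncalled differences such as that of Clec4f changed sign under some. The cause of each change was not tested. In old mice, the median over members (1.82) was -2.13 with Alb as a covariate and 0.042 without irradiated replicates 2, 3 and 5. It was -0.44 without the arrays rich in Alb, which leaves 2 irradiated old mice. The fit with Alb can hardly separate it from irradiation in old mice, where it was well above background in 5 of 6 irradiated and 0 of 6 unirradiated mice. In young mice the median over members was 1.39 with normexp (3.10). Members called in old mice (2) were 0 with normexp and 1 with slide as a fixed block, which gave 1 in young mice (6). Between unirradiated groups (1) they were 0 with normexp and 2 with the 75th percentile, with either median over well-measured spots, with spike-in controls, with slide as a random block, with the Alb covariate and without the arrays rich in Alb. Between irradiated groups (1) they were 0 with spike-in controls, normexp, the deposited values, without irradiated young replicates 2, 4 and 5 and without the arrays rich in Alb, 5 with the Alb covariate and 6 without irradiated old replicates 2, 3 and 5. For the interaction (0) they were 4 with the Alb covariate, 5 without irradiated old replicates 2, 3 and 5 and 3 without the arrays rich in Alb. All genes called between irradiated groups ran from 0 without the arrays rich in Alb to 4976 without irradiated old replicates 4 and 6. For the interaction all genes called ran from 0 to 5967, the highest without irradiated old replicates 2, 3 and 5. With normexp, all genes called were 8 in old mice and 0 between unirradiated groups. Over the alternatives all genes called ran from 835 to 8789 in young mice and from 8 to 7071 in old mice. Between unirradiated groups they ran from 0 to 12675. The counts of members stand here without the share of all genes under each setting, so nothing is read from them. Pan-macrophage genes called in young mice (10) were 6 with spike-in controls, normexp and without irradiated replicates 2, 4 and 5, and 2 with slide as a fixed block. In old mice (1) they were 0 with normexp, slide as a fixed block, the Alb covariate and without the arrays rich in Alb, 2 in 1 fit of 24 arrays and without irradiated replicates 4 and 6, and 3 without irradiated replicates 2, 3 and 5. Between unirradiated groups (8) they were 3 with the 75th percentile, with quantile scaling, with the median of probes measured on every array and with the Alb covariate, 2 with the median of each array's own measured spots and with the deposited values, 4 in 1 fit of 24 arrays, 5 with spike-in controls and without the arrays rich in Alb, and 0 with normexp. Between irradiated groups (0) they were 2 in 1 fit of 24 arrays and without irradiated old replicates 4 and 6, 1 with slide as a random block, 3 with the Alb covariate and 7 without irradiated old replicates 2, 3 and 5. Leaving out 1 mouse at a time gave 1 to 2 members called between unirradiated groups, 0 to 1 between irradiated groups (0 without irradiated young replicate 2 or 3) and 1 to 2 pan-macrophage genes in old mice. The deviations of mice of the same replicate number correlated at -0.29 to 0.33. An irradiated mouse was most like the unirradiated mouse of its own number in 1 of 6 cases in young and 3 of 6 in old mice. Whether the numbers pair mice is not decided by this. With the replicate block 4 members were called in old mice and 0 between irradiated groups. The alternatives with Alb and without several arrays were chosen after seeing the data. Apart from old irradiated replicate 4, the arrays left out for Alb also held the highest Marco, Cd5l, Vsig4 and Timd4 of their groups. The counts without these arrays follow in part from that choice. Dim probes limit Cd163, Vcam1, Siglec1 and Clec4f.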
